A study of Mus musculus with 4 samples.

Results

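The cadherins and protocadherins are 62 of the 19938 genes measured in mouse brain RNA from chronic ketamine and saline treatment. They were taken as every array row with exactly 1 gene symbol beginning with Cdh or Pcdh, and a gene with several rows was represented by the row with the highest mean over the arrays. The 4 arrays, Affymetrix Mouse Gene 1.0 ST, held tissue RNA of ICR mice, 2 titled ketamine and 2 titled saline, and the sources do not state whether each was a single animal. Ketamine at 30 mg/kg or normal saline was injected intraperitoneally once a day for 3 months, according to the methods. The source field contradicts the titles, since it gives saline where a title says ketamine and ketamine where it says saline. Groups are therefore named by title, and every difference is ketamine-titled minus saline-titled. The labels give female mice and the methods male mice that were 1 month old when obtained, and both give the tissue as prefrontal cortex.

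Cadherins are calcium-dependent adhesion proteins whose extracellular repeats bind the same or a related cadherin on the neighbouring cell. Classical cadherins of types I and II hold on to the actin cytoskeleton through catenins, and in the brain different neuron populations carry different combinations of them. Clustered protocadherins come from tandem arrays of genes, of which single neurons choose a few, and the resulting surface code is known for self-avoidance of dendrites. The non-clustered protocadherins, among them the delta-1 and delta-2 groups, are known from axon growth, cell sorting and synapse remodelling.

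Of the 12 non-clustered protocadherins 9 were lower on ketamine-titled arrays, Pcdh9 was higher, and Pcdh1 and Pcdh12 did not pass. Of the 13 type II cadherins 5 were lower and 3 higher, among them Cdh7 and Cdh18, and the type I cadherin Cdh15 was higher. The 22 Pcdhb genes passed as higher at about the share of all genes. Of the 62 genes, 12 (19.4%) were higher and 16 (25.8%) lower at an adjusted p under 0.05 in limma, against 23.2% and 9.92% of all 19938 genes. Those 28 genes are called higher or lower from here on. Past 1.3-fold, the threshold of the study, stood 12 higher and 16 lower members (34.0% of all genes in either direction), and past 2-fold 4 higher and 12 lower members (6.35% of all genes in either direction). The median log2 difference was -0.05 over the members and 0.13 over all genes.

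The balance of the 2 directions depends on the scaling between arrays. With the arrays quantile normalized again, 9 members were higher and 20 lower, beside 3311 and 3074 of the 21789 rows with 1 symbol. With each array centred on its median, 8 members were higher and 20 lower, beside 3210 and 3213 rows. As deposited, 5109 rows were higher and 2115 lower. When either ketamine-titled array was left out, no member and no row of any gene passed limma at an adjusted p under 0.05. The median log2 difference of the members was then -0.04 without ketamine-titled array 1 and -0.06 without array 2, against 0.13 over all rows in both. Fewer members passed without titled saline array 1 or array 2, and fewer rows of all genes did. The members' median was -0.05 in both of these fits, against 0.11 and 0.15 over all rows. With 2 arrays against 2 an exact two-sided permutation test cannot go below p = 0.333, and nothing in the p-values goes beyond the variation among these arrays.

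**Figure D1:**
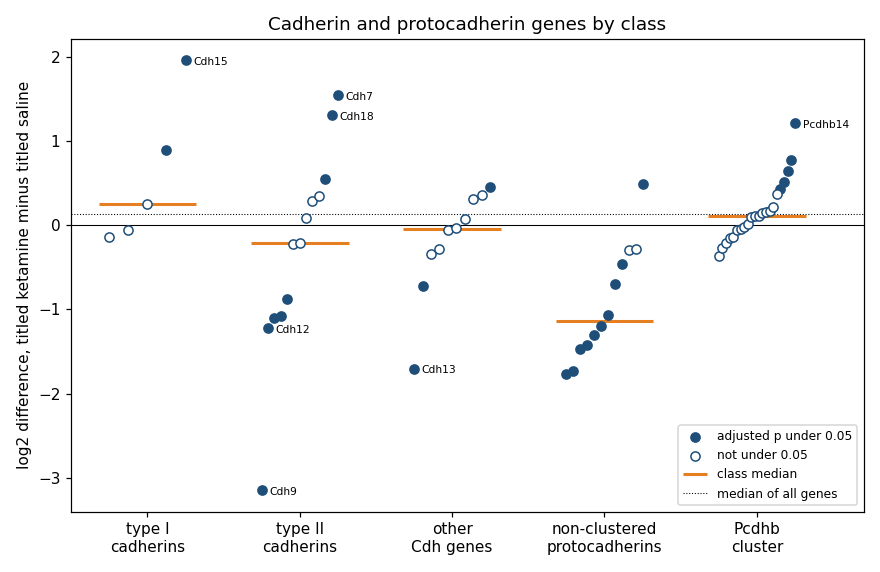
Log2 difference between ketamine-titled arrays and saline-titled arrays (y axis) for each of the 62 genes, by class (x axis). Filled points passed an adjusted p of 0.05 in limma, orange bars are class medians and the dotted line is the median of all genes, 0.13. The median of the 12 non-clustered protocadherins lies at -1.13 and that of the 22 Pcdhb genes at 0.11.

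The tissue behind the 2 groups differed in its markers. Of 8 cerebellar markers 8 were higher on ketamine-titled arrays, with mean log2 values of 9.57 and 9.40, against 5.91 and 5.14 on saline-titled arrays. Of 6 measured forebrain markers 5 were lower and 1 did not pass, with means of 5.17 and 5.18 on ketamine-titled arrays and 7.31 and 7.43 on saline-titled arrays. Tbr1 and Neurod6, which define cortical projection neurons, lay on both ketamine-titled arrays below the 95th percentile of 1035 olfactory receptor rows, which stand here for rows with no known brain expression. Treatment and dissected region cannot be told apart for any gene below. Of the microglial markers 5 of 5 were lower, and of the choroid plexus markers 5 of 6 were higher. Only 2 of 5 astrocyte and 1 of 6 endothelial markers were higher, and the remaining markers of these lists did not pass. Among all genes 23.2% were higher and 9.92% lower. Of 5 oligodendrocyte lineage markers 1, Pdgfra, was lower and 4 did not pass. The part of these markers in the results on single cadherins was not tested. In bulk tissue, fewer cells of a type and less RNA per cell cannot be told apart.

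Type I cadherins are the founding adhesion molecules of the family. At an adjusted p under 0.05, 2 of the 5 were higher and none lower, beside 23.2% higher and 9.92% lower among all genes. At an unadjusted p under 0.05 none was lower either. Cdh15, or M-cadherin, known from muscle and from cerebellar granule cells, had log2 values of 6.84 and 6.90 on ketamine-titled arrays, against 4.88 and 4.94 on saline-titled arrays. The groups were far apart and the arrays within each almost equal. Its log2 difference was 1.96 (SE 0.11, adjusted p = 4.62e-05 from limma), a 3.89-fold higher level. Cdh1, the epithelial E-cadherin, read 6.04 and 6.15 on ketamine-titled arrays and 5.26 and 5.12 on saline-titled arrays, a log2 difference of 0.90 (SE 0.11, adjusted p = 0.0014 from limma).

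The remaining type I cadherins did not pass. Cdh2, or N-cadherin, the main neural member, read 8.67 and 8.63 on ketamine-titled arrays and 8.87 and 8.72 on saline-titled arrays, with a log2 difference of -0.14 (adjusted p = 0.350 from limma). Cdh4, the retinal R-cadherin, had 6.89 and 6.88 on ketamine-titled arrays and 6.92 and 6.98 on saline-titled arrays, a difference of -0.06 (adjusted p = 0.680). Cdh3, the placental P-cadherin, had 4.74 and 4.86 on ketamine-titled arrays and 4.43 and 4.65 on saline-titled arrays, a difference of 0.26 (adjusted p = 0.151). This does not show that the levels of these 3 genes were equal.

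The sequence upstream of Cdh15 is shown because this gene had the highest positive difference of the 62. The 250 bases before its annotated start in RefSeq (GRCm38.p6, chr8:122848124-122848373, plus strand) were 62% G and C and held 5 CpG pairs. Capitals would mark a CCAAT box on either strand, the letters CCAAT or their complement, and this window has none:
Cdh15: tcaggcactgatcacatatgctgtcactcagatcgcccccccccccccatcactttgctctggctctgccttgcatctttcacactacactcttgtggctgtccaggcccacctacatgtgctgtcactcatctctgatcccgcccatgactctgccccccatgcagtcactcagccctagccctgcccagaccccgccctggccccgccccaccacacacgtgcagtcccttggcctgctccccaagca

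Type II cadherins, which sort neurons into nuclei, layers and circuits, went both ways. The 13 genes divided into 3 higher (23.1%), 5 lower (38.5%) and 5 without a call, beside 23.2% higher and 9.92% lower among all genes. Their median log2 difference was -0.21, and the distance between the quartiles was 1.42, against 0.46 over all genes. Of the 13, 12 had groups that did not overlap, 5 higher and 7 lower, where 48.4% of all genes were higher and 21.8% lower without overlap.

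**Figure D2:**
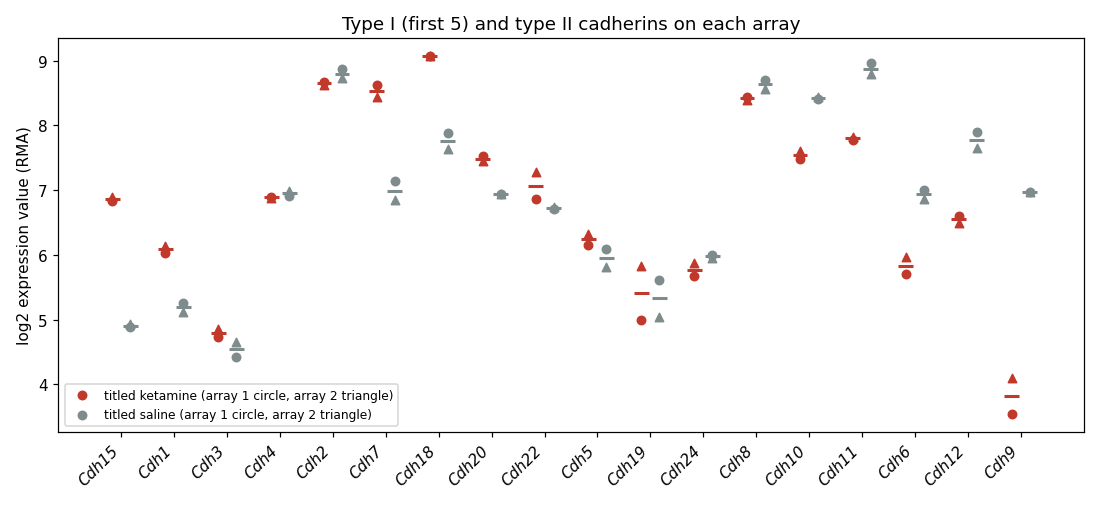
Log2 expression (y axis) of the 5 type I and 13 type II cadherins (x axis, each class from the highest to the lowest difference) on each array, red for titled ketamine and grey for titled saline, with bars for group means. Cdh15, Cdh7 and Cdh18 lie higher on the red arrays, and Cdh9 reads 3.54 and 4.10 on these, against 6.97 on both grey ones.

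The type II cadherins that were higher were Cdh7, Cdh18 and Cdh20. Cdh7, a cadherin of developing neurons and neural crest, read 8.63 and 8.44 on ketamine-titled arrays, against 7.14 and 6.85 on saline-titled arrays. No array of one group reached the level of the other, and the log2 difference was 1.54 (SE 0.14, adjusted p = 0.000311 from limma). Cdh18 had 9.08 and 9.07 on ketamine-titled arrays and 7.88 and 7.64 on saline-titled arrays, a difference of 1.31 (SE 0.12, adjusted p = 0.000372). A second row for Cdh18 gave a difference of 1.00 (adjusted p = 0.000788), so both rows of this gene were higher. Cdh20 differed less, with 7.52 and 7.45 on ketamine-titled arrays and 6.94 and 6.95 on saline-titled arrays, a difference of 0.54 (adjusted p = 0.00785 from limma).

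The lower members were Cdh9, Cdh12, Cdh6, Cdh11 and Cdh10. Cdh9, known for adhesion at specific hippocampal and retinal synapses, read 3.54 and 4.10 on ketamine-titled arrays and 6.97 on both saline-titled arrays. Its level on ketamine-titled arrays lay below the olfactory receptor percentile (4.56 and 4.46), so that the size of the log2 difference of -3.15 (SE 0.18, adjusted p = 5.16e-05 from limma) is not resolved. The 2 saline values of Cdh9 were identical to every deposited digit, as in 1449 of 35556 rows on saline-titled arrays, against 161 rows on ketamine-titled arrays. Cdh12 had 6.60 and 6.50 on ketamine-titled arrays and 7.90 and 7.64 on saline-titled arrays, a difference of -1.22 (SE 0.13, adjusted p = 0.000611).

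Cdh6, known from kidney and from subsets of cortical neurons, Cdh11, the osteoblast cadherin that is also present in brain, and Cdh10 stood close together. Cdh6 read 5.70 and 5.97 on ketamine-titled arrays and 7.0 and 6.87 on saline-titled arrays, a log2 difference of -1.11 (adjusted p = 0.00104 from limma). Cdh11 had 7.78 and 7.83 on ketamine-titled arrays and 8.96 and 8.79 on saline-titled arrays, a difference of -1.07 (adjusted p = 0.00066), while 3 rows that carry Cdh11 together with other symbols had differences of 0.63 to 0.81. For Cdh10 the values were 7.48 and 7.60 on ketamine-titled arrays and 8.41 and 8.43 on saline-titled arrays, with a difference of -0.88 (adjusted p = 0.00125). In these 3 genes, as in all 16 lower members, both ketamine-titled arrays lay below both saline-titled arrays. The same held for 21.8% of all genes.

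The 5 type II cadherins that did not pass were Cdh5, Cdh8, Cdh19, Cdh22 and Cdh24. Cdh5, or VE-cadherin, which joins endothelial cells, read 6.15 and 6.33 on ketamine-titled arrays and 6.09 and 5.81 on saline-titled arrays, a log2 difference of 0.29 (adjusted p = 0.141 from limma). The endothelial list had mean log2 values of 6.85 and 6.81 on ketamine-titled arrays and 6.62 and 6.37 on saline-titled arrays. Cdh8, a cadherin of cortical areas and of cold-sensing circuits, had 8.44 and 8.40 on ketamine-titled arrays and 8.71 and 8.57 on saline-titled arrays, a difference of -0.22 (adjusted p = 0.170). It passed after quantile normalization (-0.33, adjusted p = 0.0459) and after centring (-0.35, adjusted p = 0.05). Cdh19, named after its values were seen, differed more within the groups than between them, with 5.0 and 5.83 on ketamine-titled arrays and 5.62 and 5.04 on saline-titled arrays. Of the other two, also named after their values were seen, Cdh22 differed by 0.34 (adjusted p = 0.122) and Cdh24 by -0.21 (adjusted p = 0.212), and a second row of Cdh24 by 0.39 (adjusted p = 0.143).

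Members that lie side by side in the genome did not always move together. In the order of RefSeq protein-coding genes (GRCm38.p6), Cdh6, Cdh9, Cdh10 and Cdh12 follow each other on chromosome 15 with 0 genes between them, and Cdh18 comes after 1 further gene. The first 4 were lower, with log2 differences of -0.88 to -3.15, and Cdh18 was higher by 1.31. On chromosome 1 Cdh7 and Cdh19 are neighbours with differences of 1.54 and 0.08. On chromosome 8 Cdh8, Cdh11 and Cdh5 stand in a row, with differences of -0.22, -1.07 and 0.29, and Cdh3 and Cdh1 form another pair, at 0.26 and 0.90. Differences between neighbouring genes were not tested.

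The upstream sequences of 4 neighbours on chromosome 15 are shown because Cdh18 differed in direction from Cdh9, Cdh10 and Cdh12. Each is 250 bases before 1 annotated RefSeq start (GRCm38.p6, plus strand), at chr15:16728665-16728914 for Cdh9, chr15:18820079-18820328 for Cdh10, chr15:21111202-21111451 for Cdh12 and chr15:23036213-23036462 for Cdh18. They were 48%, 36.8%, 46.8% and 58% G and C in this order. Capitals mark a CCAAT box on either strand:
Cdh9: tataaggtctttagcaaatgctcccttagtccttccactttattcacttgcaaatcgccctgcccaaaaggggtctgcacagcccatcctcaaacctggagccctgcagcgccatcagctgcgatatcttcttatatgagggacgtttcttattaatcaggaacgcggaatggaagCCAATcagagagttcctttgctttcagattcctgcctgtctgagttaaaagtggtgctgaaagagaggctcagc
Cdh10: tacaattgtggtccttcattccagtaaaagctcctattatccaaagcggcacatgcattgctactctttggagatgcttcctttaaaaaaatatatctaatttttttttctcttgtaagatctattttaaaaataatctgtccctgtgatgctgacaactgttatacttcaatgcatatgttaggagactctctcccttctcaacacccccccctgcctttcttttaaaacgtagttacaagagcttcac
Cdh12: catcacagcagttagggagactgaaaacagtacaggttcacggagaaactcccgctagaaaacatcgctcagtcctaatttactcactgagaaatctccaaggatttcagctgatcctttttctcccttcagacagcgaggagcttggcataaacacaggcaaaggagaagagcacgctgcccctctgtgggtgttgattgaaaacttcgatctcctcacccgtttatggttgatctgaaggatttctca
Cdh18: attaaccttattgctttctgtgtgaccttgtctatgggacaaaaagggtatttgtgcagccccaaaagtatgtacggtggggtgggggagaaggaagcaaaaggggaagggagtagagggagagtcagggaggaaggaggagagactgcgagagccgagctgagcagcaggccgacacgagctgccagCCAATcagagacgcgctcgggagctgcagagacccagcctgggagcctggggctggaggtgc

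A CCAAT box was present 1 time each upstream of Cdh9, which was lower, and of Cdh18, which was higher, and neither Cdh10 nor Cdh12 had one. The 25 members on chromosome 18, among them all 22 Pcdhb genes, were left out of the search. The windows of all genes were not filtered in this way. The other members had 30 RefSeq upstream windows for 27 of the 62 genes, and the rest had none. The CCAAT letters, chosen after these sequences had been read, occurred in 17 of the 30 windows (56.7%), against 33.8% of all 32851 windows of that length. By class, among genes with a window searched, 8 of 9 non-clustered protocadherins and 5 of 10 type II cadherins had at least 1. The letters CAGATG, an E-box bound by NeuroD factors, occurred in 4 of the 30 windows (13.3%, against 14.4% of all), and TATAAA in 2 (6.67%, against 12.4%). Neither TGACGTCA, a cAMP response element (1.55% of all windows), nor AGGTGTGA, a T-box element (1.12%), was in any of the 30. Both strands were searched, no motif contains another, and a match is only a match of letters.

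The other Cdh genes encode distant relatives, many of them of epithelia and sense organs, and 1 of 10 was higher, 2 lower and 7 did not pass, beside 23.2% higher and 9.92% lower among all genes. Cdh13, or T-cadherin, which lacks a cytoplasmic part and is held in the membrane by a lipid anchor, read 5.99 and 6.39 on ketamine-titled arrays and 7.84 and 7.94 on saline-titled arrays. This was a log2 difference of -1.70 (SE 0.15, adjusted p = 0.000299 from limma), a 3.26-fold lower level with no overlap between groups. Cdhr1, a photoreceptor cadherin, had 3.95 and 4.01 on ketamine-titled arrays and 4.59 and 4.82 on saline-titled arrays, a difference of -0.72 (adjusted p = 0.00468). On ketamine-titled arrays Cdhr1 lay below the olfactory receptor percentile.

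Several of these relatives were dim. Cdhr5, a brush border cadherin, was higher by 0.45 (adjusted p = 0.0231 from limma), with 4.15 and 4.02 on ketamine-titled arrays and 3.71 and 3.56 on saline-titled arrays, all 4 below the olfactory receptor percentiles of their arrays. Its adjusted p was 0.124 after quantile normalization. Cdh17, of liver and intestine, was dim on all 4 arrays as well and did not pass (-0.29, adjusted p = 0.101). The kidney cadherin Cdh16, with Cdhr3, Cdhr4, Cdh26 and Cdhr2, named after their values were seen, had differences between -0.34 and 0.36 and did not pass either. Cdh23, the upper part of the hair cell tip link, read 4.73 and 4.73 on ketamine-titled arrays and 4.79 and 4.79 on saline-titled arrays, a difference of -0.05 (adjusted p = 0.723).

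Most non-clustered protocadherins were lower. Of 12 genes 9 (75%) were lower, 1 was higher and 2 did not pass, against 9.92% lower and 23.2% higher among all genes. Fewer of them were lower, and none was higher, when titled saline array 1 or array 2 was left out. Fewer rows of all genes passed in these fits too. Their median log2 difference was -1.13, and 7 of the 12 were past 2-fold lower. The 5 delta-2 members, several of which recruit the WAVE actin regulators, were all lower, with a median of -1.43. Of the 4 delta-1 members 2 were lower, 1 was higher and 1 did not pass. The forebrain markers that were lower on ketamine-titled arrays have been given above, and their part in these values was not tested.

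**Figure D3:**
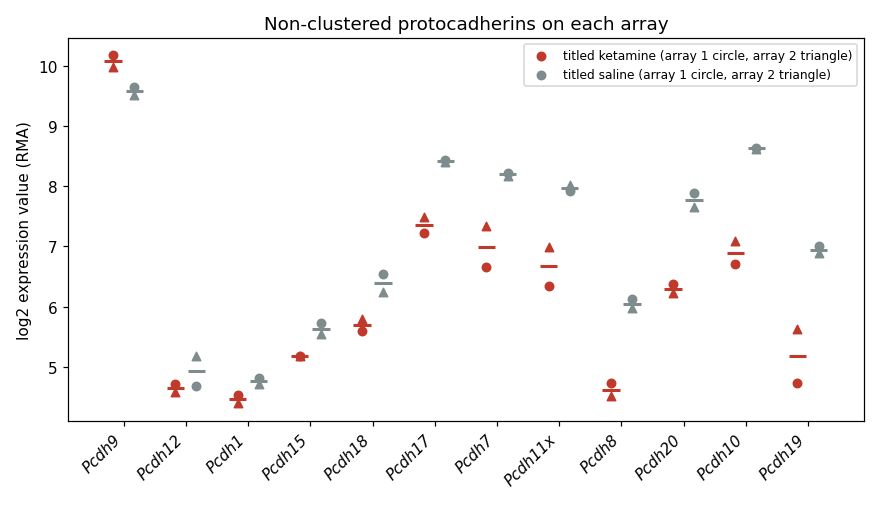
Log2 expression (y axis) of the 12 non-clustered protocadherins (x axis, from the highest to the lowest difference) on each array, red for titled ketamine and grey for titled saline, with bars for group means. Pcdh9 alone lies higher on both red arrays, and Pcdh19, Pcdh7 and Pcdh11x differ between the 2 red arrays by 0.91, 0.67 and 0.63.

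Among the delta-2 members, Pcdh19, an X-linked gene whose human counterpart is mutated in an epilepsy of females, had 4.72 and 5.63 on ketamine-titled arrays, against 7.01 and 6.88 on saline-titled arrays. The array 2 value was clearly above that of array 1 but still below both saline-titled arrays, and the log2 difference was -1.77 (SE 0.26, adjusted p = 0.0029 from limma). It was -2.22 without titled ketamine array 2 and -1.31 without array 1. Pcdh10, or OL-protocadherin, read 6.70 and 7.09 on ketamine-titled arrays and 8.63 and 8.62 on saline-titled arrays, a difference of -1.73 (SE 0.15, adjusted p = 0.000244). In mice Pcdh10 is known to be needed for the growth of striatal axons.

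Pcdh8, or arcadlin, which neuronal activity induces at synapses, had 4.73 and 4.51 on ketamine-titled arrays and 6.13 and 5.97 on saline-titled arrays, a log2 difference of -1.43 (SE 0.12, adjusted p = 0.000293 from limma). Pcdh17, known from corticobasal ganglia circuits, read 7.23 and 7.49 on ketamine-titled arrays and 8.44 and 8.41 on saline-titled arrays, a difference of -1.07 (SE 0.12, adjusted p = 0.000998). The groups did not overlap for either gene, as for all 16 lower members, and 21.8% of all genes were lower without overlap. Pcdh18, named after its values were seen, was the member of the group that differed least, by -0.69 (adjusted p = 0.00987), with 5.59 and 5.80 on ketamine-titled arrays and 6.54 and 6.24 on saline-titled arrays.

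The delta-1 members were split. Pcdh11x, the X-linked member, had 6.35 and 6.98 on ketamine-titled arrays and 7.91 and 8.03 on saline-titled arrays, a log2 difference of -1.30 (SE 0.20, adjusted p = 0.00309 from limma). It was -1.62 without titled ketamine array 2 and -0.99 without array 1. Pcdh7 read 6.66 and 7.33 on ketamine-titled arrays and 8.22 and 8.17 on saline-titled arrays, a difference of -1.20 (SE 0.21, adjusted p = 0.00496), and -1.54 and -0.87 without array 2 and array 1 of the titled ketamine group. Pcdh9, by contrast, was higher, with 10.17 and 9.98 on ketamine-titled arrays and 9.64 and 9.52 on saline-titled arrays, a difference of 0.49 (SE 0.12, adjusted p = 0.0194). Its second row was higher by 0.42 (adjusted p = 0.0312), and centring of the arrays took the first to an adjusted p of 0.0607. Pcdh1, the member that did not pass and was named after its values were seen, had 4.54 and 4.4 on ketamine-titled arrays and 4.82 and 4.71 on saline-titled arrays (-0.30, adjusted p = 0.0853). On both ketamine-titled arrays Pcdh1 lay below the olfactory receptor percentile.

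Of the remaining 3 genes, Pcdh20 had 6.38 and 6.22 on ketamine-titled arrays and 7.88 and 7.65 on saline-titled arrays, a log2 difference of -1.47 (SE 0.13, adjusted p = 0.000269 from limma). Pcdh15, the lower part of the hair cell tip link and a gene of oligodendrocyte precursors, had a lower level, with a difference of -0.46 (adjusted p = 0.0209), with 5.17 and 5.18 on ketamine-titled arrays and 5.73 and 5.54 on saline-titled arrays. Its second row, at -0.32, did not pass (adjusted p = 0.0752). Of the oligodendrocyte lineage markers, the precursor genes Pdgfra and Cspg4 differed by -0.74 and 0.12, Sox10 by -0.01, and the myelin genes Mbp and Mog by 0.05 and 0.04, and Pdgfra alone passed. Pcdh12 of endothelial cells, the third gene, did not pass, with 4.72 and 4.59 on ketamine-titled arrays and 4.68 and 5.18 on saline-titled arrays.

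Pcdh20 and Pcdh9 are adjacent protein-coding genes on chromosome 14. Pcdh8 and Pcdh17 lie before them, with 1 protein-coding gene between Pcdh8 and Pcdh17 and 2 between Pcdh17 and Pcdh20. Pcdh8, Pcdh17 and Pcdh20 were lower, with differences of -1.07 to -1.47, and Pcdh9 was higher by 0.49. The sequences upstream of the adjacent pair are shown for this contrast, each 250 bases before 1 annotated RefSeq start (GRCm38.p6, minus strand), at chr14:88471397-88471646 for Pcdh20 and chr14:93890680-93890929 for Pcdh9. The window of Pcdh20 was 42.4% G and C with 3 CpG pairs, and that of Pcdh9 63.6% with 18. Capitals mark a CCAAT box on either strand, present 1 time in each:
Pcdh20: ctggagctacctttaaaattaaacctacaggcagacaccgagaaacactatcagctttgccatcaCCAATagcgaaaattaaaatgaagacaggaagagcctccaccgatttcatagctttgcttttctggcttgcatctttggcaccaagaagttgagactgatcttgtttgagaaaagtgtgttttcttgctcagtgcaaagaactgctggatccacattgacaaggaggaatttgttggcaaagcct
Pcdh9: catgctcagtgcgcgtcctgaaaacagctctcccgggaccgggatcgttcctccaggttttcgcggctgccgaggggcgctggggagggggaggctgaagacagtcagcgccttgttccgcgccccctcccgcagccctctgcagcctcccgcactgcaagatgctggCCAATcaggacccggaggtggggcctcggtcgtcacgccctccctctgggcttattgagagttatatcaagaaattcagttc

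Pcdhb genes, which encode clustered protocadherins from single uninterrupted exons, had a median absolute log2 difference of 0.16, against 1.13 in the non-clustered ones and 0.26 over all genes. Of the 22, all represented by 1 row each, 5 (22.7%) were higher, against 23.2% of all genes, and none was lower, also at an unadjusted p under 0.05, with 17 not passing. Fewer of them were higher when titled saline array 1 or array 2 was left out, and fewer rows of all genes were. The median log2 difference was 0.11, close to the 0.13 of all genes, and after quantile normalization or centring it was -0.03 and -0.02. The groups overlapped in 13 of the 22, and without overlap 8 were higher and 1 lower. Among all genes 48.4% were higher and 21.8% lower without overlap. The genes are similar in sequence, so that a probe may read more than 1 of them, and values of single members are uncertain. Cross-reading was not tested.

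The members that were higher lay at one side of the cluster. In cluster order Pcdhb14, Pcdhb15, Pcdhb16 and Pcdhb17 stand next to each other, and Pcdhb22 is the last gene. Pcdhb14 read 6.06 and 5.76 on ketamine-titled arrays and 4.97 and 4.42 on saline-titled arrays, a log2 difference of 1.21 (SE 0.19, adjusted p = 0.00373 from limma). Pcdhb22 had 6.57 and 6.54 on ketamine-titled arrays and 5.94 and 5.62 on saline-titled arrays, a difference of 0.77 (SE 0.13, adjusted p = 0.0052). No saline-titled array reached the lower ketamine-titled one in either gene. Pcdhb14 lay just below the olfactory receptor percentile on saline-titled array 2 (4.42 against 4.43), so that the size of its difference is less certain.

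Between them, Pcdhb15 read 6.56 and 6.28 on ketamine-titled arrays and 5.84 and 5.71 on saline-titled arrays, a log2 difference of 0.65 (adjusted p = 0.00972 from limma). Pcdhb16 had 7.27 and 7.05 on ketamine-titled arrays and 6.83 and 6.46 on saline-titled arrays, a difference of 0.52 (adjusted p = 0.0379). Pcdhb17, named after its values were seen, differed by 0.43 (adjusted p = 0.0434), and its neighbour Pcdhb18 by 0.37 without passing (adjusted p = 0.0813). After quantile normalization and after centring 3 of the 22 were higher, beside 3311 and 3210 of the 21789 rows with 1 symbol. Pcdhb16 did not pass in either (adjusted p = 0.0918 and 0.092 from limma).

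**Figure D4:**
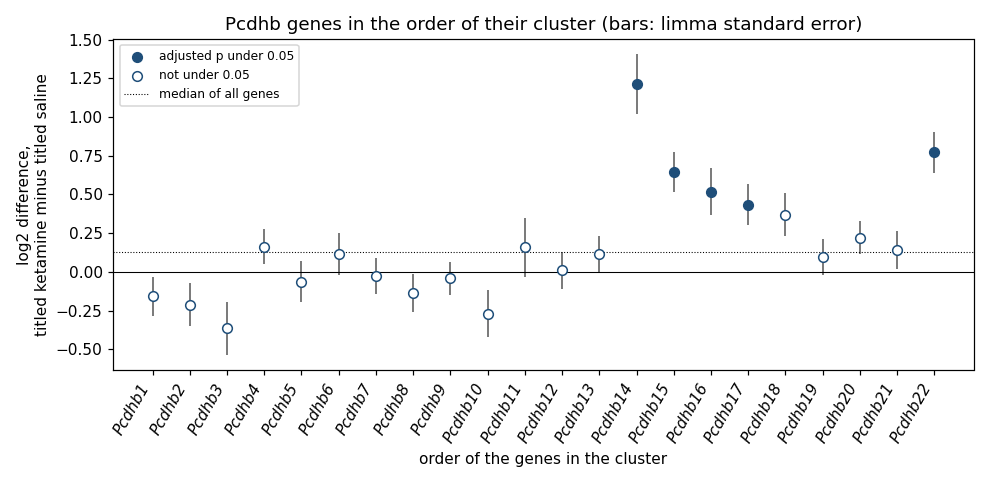
Log2 difference between ketamine-titled arrays and saline-titled arrays (y axis, bars for the standard error from limma) for the 22 Pcdhb genes in the order of their cluster (x axis). Filled points passed an adjusted p of 0.05. The first 13 genes lie between -0.36 and 0.16 and the last 9 between 0.10 and 1.21.

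Split after the values were seen, Pcdhb1 to Pcdhb13 had a median log2 difference of -0.04, with 5 of 13 above 0. Pcdhb1 was dim on all 4 arrays. Pcdhb14 to Pcdhb22 had a median of 0.43, with 9 of 9 above 0. The median of all genes was itself above 0, at 0.13. Pcdhb19 of the second stretch (0.10) lay below that median, and Pcdhb4 and Pcdhb11 of the first (0.16 each) above it. Across the 22 genes the difference went with the order in the cluster at a Spearman's rho of 0.70 and a Pearson's r of 0.61. For the 4 differences of 1 array titled ketamine and 1 titled saline, rho was between 0.53 and 0.71. For the difference of the 2 ketamine-titled arrays it was 0.14 and for that of the 2 titled saline 0.15. These coefficients describe genes that share the same arrays and have similar sequences, and they carry no test.

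The Pcdha genes were on the array as 1 row with 14 symbols, which belongs to no single gene and was not counted among the 62. That row read 6.23 and 6.18 on ketamine-titled arrays and 6.21 and 6.26 on saline-titled arrays, a log2 difference of -0.03 (adjusted p = 0.846 from limma over 23410 rows with any symbol). Its 4 values overlapped between the groups. No row carried a Pcdhg symbol, and this cluster was not analysed here.

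The members also differed between arrays of 1 group. Of all 62, 35 read higher on titled ketamine array 2 than on array 1 and 23 on titled saline array 2, with median gaps of 0.17 and 0.14. Among the 16 lower genes, 13 read higher on titled ketamine array 2 than on array 1, with a median gap of 0.24, against 4 of 16 higher on titled saline array 2, with a median gap of 0.13. Of the 12 higher genes 2 read higher on titled ketamine array 2, and 2 on titled saline array 2, with median gaps of 0.13 and 0.19. The gaps of Pcdh19 (0.91), Cdh19 (0.83), Pcdh7 (0.67) and Pcdh11x (0.63) were the widest among the members on ketamine-titled arrays.

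The partners of cadherins, taken from lists of catenins, relatives and effectors, were set against the same shares of all genes, 23.2% higher and 9.92% lower. Of 16 catenins and junction proteins 5 were higher, 3 lower and 8 did not pass. Ctnna3, an alpha-catenin, Jup, or plakoglobin, and Ctnnal1, an alpha-catenin-like protein, were higher by log2 differences of 1.75, 1.48 and 0.98. Pkp2, a plakophilin, Ctnna2, the neural alpha-catenin, and Ctnnd2, the neural delta-catenin, were lower by differences of -0.64, -0.61 and -0.43. Ctnnb1, or beta-catenin, the common link of classical cadherins, was at 0.09 and did not pass (adjusted p = 0.531 from limma).

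Among 16 measured relatives of the cadherins under other symbols 4 were higher, 7 lower and 5 did not pass, with 23.2% of all genes higher and 9.92% lower. Fat2, a giant cadherin known from cerebellar granule cells, read 9.08 and 8.81 on ketamine-titled arrays, against 4.94 and 4.83 on saline-titled arrays, a log2 difference of 4.05. Its relative Fat1 was higher by 1.63, and Fat3 and Fat4 were lower by differences of -1.19 and -0.76. Of the planar polarity cadherins, Celsr2 was lower with a difference of -0.85, Celsr3 was higher by 0.52 (adjusted p = 0.0125 from limma) and Celsr1, at -0.22, did not pass. Celsr3 and Celsr1 were named after their values were seen. Ret, a receptor kinase with cadherin repeats, was higher by 0.94.

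Of 9 measured effectors of protocadherins none was higher (1, Fyn, at an unadjusted p under 0.05), 4 were lower and 5 did not pass, beside the 9.92% of all genes that were lower. Ptk2b, the kinase Pyk2 that clustered protocadherins inhibit, read 5.33 and 5.04 on ketamine-titled arrays and 10.07 and 10.06 on saline-titled arrays, a log2 difference of -4.88. Wasf1 and Brk1 of the WAVE complex were lower by differences of -1.07 and -0.63. Of 11 regulators of the clustered promoters, 8 were higher and 3 did not pass, beside the 23.2% of all genes that were higher. Stag1 and Stag2, subunits of cohesin, were higher by 1.12 and 1.02, and Nipbl, which loads cohesin, by 0.65. Ctcf, the insulator protein that pairs protocadherin promoters with their enhancers, was higher by 0.57 (adjusted p = 0.00748 from limma).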

How the data were processed

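Labelled tissue RNA was put on Affymetrix Mouse Gene 1.0 ST arrays, and the log2 values that the authors deposited had been made with Affymetrix Expression Console by robust multi-array average over core exons, which corrects background, quantile normalizes and summarizes probes. Version and genome build: not given in the sources used here. The table held 35556 rows: 21789 with 1 gene symbol in the platform annotation, 1621 with several and 12146 with none. No per-array depth exists, and 4 arrays limit the precision. The values were used as deposited.

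limma (3.58.1, R 4.3.3) was fitted on the 21789 rows, titled ketamine minus titled saline, with moderated variances and Benjamini-Hochberg adjustment over all rows. It was tested on simulated data. Classes follow the symbols, and 4 members with 2 rows kept the one with the higher mean. In each class up to 6 passing genes a direction (4 in the clusters) were named, provided their groups did not overlap. All 12 higher and 16 lower members met this condition. All type I cadherins and 11 further genes were named whatever their values. Members and lists were chosen with earlier results of these data known. Groups follow the titles, which the source field of the labels contradicts. Alternatives changed the scaling, the row filter, the variance moderation, the row kept, the block and the arrays.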

Additional observations from a re-analysis of the deposited data

Results flagged for a closer look

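A signal lay in rows outside the 62 genes. One row that carried Cdh11 together with 2 Riken symbols, and so belongs to no single gene, read 8.96 and 8.56 on ketamine-titled arrays and 8.28 and 7.62 on saline-titled arrays, a log2 difference of 0.808 (adjusted p = 0.0383 from limma over 23410 rows). The row with Cdh11 as its 1 symbol differed by -1.07 on the same arrays. A further 2 rows with the same 3 symbols differed by 0.63 and 0.70 and did not pass (adjusted p = 0.0701 and 0.0530).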

How the results depend on the processing

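The 32 genes picked by the naming rule kept the sign of their difference under every alternative in which they were fitted. None of the 32 had overlapping groups, so leaving out an array could not change a sign. The row filter, the variance moderation, the block and the added rows left the differences themselves unchanged. With only rows at or above the median level, 22 of the 32 genes were fitted. Other members named above were not followed in this way, and the second row of Cdh24 had the opposite sign (0.39, against -0.21). With the replicate number as a block, 5896 rows were higher and 2354 lower, against 5109 and 2115 without it, and the members' counts did not change. The numbers are not shown to pair the arrays (correlation of deviations 0.03, 2 pairs). Quantile normalization gave 3311 rows higher, and of the members 0 other Cdh higher and 4 lower, and 3 Pcdhb higher. Median centring gave 3210 rows higher and 3213 lower, 0 other Cdh higher and 4 lower, 0 non-clustered protocadherins higher and 3 Pcdhb higher. These took the median difference of all rows from 0.13 to 0.01 and -0.00. With only rows at or above the median level, where 29 members remained, 7 members were higher at either threshold, with 0 type I, 0 other Cdh and 3 Pcdhb among them, and 1 other Cdh was lower. Among all 62 members, without that row filter, 4 were past 2-fold higher. Leaving out 1 array at a time gave 0 to 3171 rows higher and 0 to 1403 lower, 0 to 9 members higher and 0 to 14 lower, 0 to 2 type I higher, 0 to 3 type II higher and 0 to 5 lower, 0 other Cdh higher and 0 to 2 lower, 0 non-clustered protocadherins higher and 0 to 7 lower, and 0 to 4 Pcdhb higher. The zeros came from leaving out either ketamine-titled array, a fit in which the lone array is assumed to vary like those of the other group, and for other Cdh and non-clustered protocadherins higher also from leaving out either saline-titled array. The cause was not tested. A fit with rows of several symbols added, chosen after seeing the data, left the members at 12 higher and 16 lower. Cdhr5, Cdh17 and Pcdhb1 were dim on all 4 arrays, and Cdh9, Cdhr1, Cdhr2, Cdh26, Pcdh1 and Pcdhb14 on some, which limits their differences.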
